A study of Mus musculus with 12 samples.

Results

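The 10 genes described here encode the machinery that shows peptides on MHC class I: the heavy chains H2-K1, H2-D1 and H2-T23, their light chain B2m, the peptide transporter Tap1 and Tap2, the loading factor Tapbp, the immunoproteasome subunits Psmb8 and Psmb9, and the transactivator Nlrc5. They were chosen by symbol, and each matched 1 of 55487 rows of the count table. RNA had been sequenced from macrophages of mouse hearts that underwent ischemia and reperfusion (I/R) 2 days earlier, in 12 libraries of about 1000 sorted cells each. CD45.1 cells, recruited from the bone marrow, and CD45.2 cells, resident in the heart, were each taken from the remote zone (RZ) and the infarct zone (IZ), with 3 libraries in each of the 4 groups. All cells came from adult CD45.2 Mx1CreMybflox/flox hosts, whose marrow had been ablated by 4 injections of polyI:C, an inducer of interferon, and replaced with marrow of congenic C57BL/6 CD45.1 mice, which reached a chimerism above 90% when checked after 4 weeks. Deletion of Myb by the interferon-inducible Mx1Cre was therefore possible in CD45.2 cells only, and only the host had received polyI:C, so host genotype, polyI:C and residence cannot be told apart in any comparison of the populations. CD45.2 cells include any host marrow cells that survived the ablation. The gate was CD45+, lineage-negative, CD11b+, F4/80+, CD64+ and CD45.1+ or CD45.2+.

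In the class I pathway, proteasomes cut cytosolic proteins into peptides, the TAP transporter carries these into the endoplasmic reticulum, and tapasin with its partner chaperones loads them onto a heavy chain bound to beta-2 microglobulin. Nearly all nucleated cells run this pathway, and interferons raise it in macrophages through IRF1 and Nlrc5, which switch on heavy chain, B2m, TAP and immunoproteasome genes together. Class I peptides are read by CD8 T cells, and the level of class I is sensed by NK cells.

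Libraries held 33253340 to 63435529 counts. Apart from the groups, the libraries fell into 3 sets with 1 library of every group in each. S104 to S107 stood apart from the others on the second principal component, which held 15.02% of the variance. Sex was called from the counts of Xist against those of the Y-linked genes Ddx3y, Kdm5d, Eif2s3y and Uty. By this call S108 to S111 were male, and S112 to S115, like S104 to S107, female. In CD45.1 libraries the call describes cells of the marrow donor. The study names 3 mice, but no label ties a library to a mouse. P-values therefore measure only the spread between the 3 libraries of a group, which in every group included both called sexes. In such sorted pools, fewer expressing cells and less RNA per cell cannot be told apart. Values of a gene in each group are given below in the order of these sets. All 7 markers of the sorted macrophages were detected in every group. Of other cells, 10 T cell markers summed to at most 8.35 CPM (counts scaled to the size of each library) in any library and 7 NK cell markers to at most 0.612 CPM, with Ncr1, Klra8 and Gzma at 0 counts in both remote zone groups. B cell markers summed to 314 to 656 CPM in CD45.2 RZ and 148 to 295 in CD45.2 IZ, against 69.5 to 105.9 in CD45.1 RZ and 34.8 to 50.3 in CD45.1 IZ, and 7 of the 8 averaged at least 1 CPM in either CD45.2 group against 3 of 8 in either CD45.1 group. The sum of 9 neutrophil markers ran from 100.3 to 145 CPM across CD45.1 libraries, and for CD45.2 from 4.40 to 33.5. Mmp8 made up most of this sum in 11 of 12 libraries, the exception being CD45.2 RZ of S104 to S107 with 4.94 of 11.9 CPM, and stood at 76.8 to 136 CPM in CD45.1 RZ and 93.1 to 143 in CD45.1 IZ against 4.12 to 6.59 and 19.7 to 31.4 in CD45.2 RZ and IZ, while Ly6g, Ngp, Camp and Ltf were each at most 0.183 CPM in any library. Fibroblast markers reached 1166 CPM in a CD45.2 IZ library and 162 CPM at most in CD45.1. The part of these cells in the values below was not tested.

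Of the 10 members, 8 lie on chromosome 17 of GRCm38, between the start of Tapbp at 33915899 and the end of H2-T23 at 36032855, the region of the MHC. B2m lies on chromosome 2 (122147686 to 122153083) and Nlrc5 on chromosome 8 (94434356 to 94527272).

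The sequences just upstream of 5 members are shown to place the searched motifs in the class I heavy chains, B2m and Psmb8, and nothing about the levels below is read from them. RefSeq (GRCm38.p6) gave a start site for 8 members. The 200 bases before it follow, 5′ to 3′ on the gene's strand, with matches to the searched motifs in capitals.
H2-K1 (chr17:34000348-34000547, minus strand): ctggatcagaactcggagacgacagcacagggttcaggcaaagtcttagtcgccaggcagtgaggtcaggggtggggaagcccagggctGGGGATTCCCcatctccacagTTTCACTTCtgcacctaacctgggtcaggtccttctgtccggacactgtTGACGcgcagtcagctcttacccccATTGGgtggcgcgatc
H2-D1 (chr17:35262894-35263093, plus strand): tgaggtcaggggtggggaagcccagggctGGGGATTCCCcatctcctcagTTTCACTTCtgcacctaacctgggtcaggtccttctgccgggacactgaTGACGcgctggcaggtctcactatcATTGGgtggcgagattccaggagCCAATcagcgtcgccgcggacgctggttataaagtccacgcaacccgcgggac
H2-T23 (chr17:36032702-36032901, minus strand): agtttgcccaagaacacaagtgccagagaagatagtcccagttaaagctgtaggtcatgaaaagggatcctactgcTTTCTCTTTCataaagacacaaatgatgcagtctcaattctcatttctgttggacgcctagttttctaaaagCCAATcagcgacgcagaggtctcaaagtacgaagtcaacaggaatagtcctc
B2m (chr2:122147487-122147686, plus strand): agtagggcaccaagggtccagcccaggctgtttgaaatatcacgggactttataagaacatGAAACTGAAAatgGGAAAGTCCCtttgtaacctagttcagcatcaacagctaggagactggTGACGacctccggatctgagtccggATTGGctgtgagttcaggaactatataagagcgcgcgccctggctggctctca
Psmb8 (chr17:34197995-34198194, plus strand): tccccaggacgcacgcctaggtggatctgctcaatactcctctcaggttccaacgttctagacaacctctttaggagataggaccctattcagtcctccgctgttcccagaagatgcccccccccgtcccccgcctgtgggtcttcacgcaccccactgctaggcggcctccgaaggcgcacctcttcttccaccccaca

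The motifs searched on both strands were the interferon response element core (GAAA, any 2 bases, GAAA), its shorter form GAANNGAAA, a kappa-B site (GGG, any 2 bases, TT, any base, CC), TGACG (the core of the X2 box, through which Nlrc5 acts together with RFX factors) and CCAAT (the box bound by NF-Y). Within a window no match overlapped another. H2-K1 and H2-D1 both held a kappa-B match, then the shorter interferon form, TGACG and a CCAAT box read on the opposite strand. H2-D1 held a further CCAAT, and 127 of the 140 bases that align between the windows of both genes were identical (90.7%). B2m held the full interferon core, then a kappa-B match, TGACG and a CCAAT box. H2-T23 held the full interferon core and a CCAAT box, and Psmb8 no match. The windows not printed held no interferon or kappa-B match, with TGACG in Tap1, a CCAAT box in Tapbp and both in Psmb9. Over 32851 promoters of the same length, the interferon core was found in 2.27%, its shorter form in 4.995%, the kappa-B site in 3.39%, TGACG in 15.7% and CCAAT in 29.3%. A match describes letters only, and the annotated 5′ end in the count table lies 364 bases from the RefSeq start of H2-D1, 154 from that of H2-T23 and 474 from that of Psmb8. For Psmb9 and Tapbp, whose windows are not printed, it lies 434 and 3579 bases away. Start sites of Tap1 and Psmb9, which are read in opposite directions, lie 226 bases apart. Their windows therefore overlap, and the TGACG in both is the same stretch of bases.

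Per kilobase of annotated exon, B2m and H2-D1 were the most abundant members. Their means over the 12 libraries were 1314 CPM per kb (813 to 1866) and 1181 CPM per kb (877 to 1551), ranges that overlap. H2-K1 followed at 279 CPM per kb (193 to 372) and Tapbp at 119.7 (99.4 to 144), each apart from its neighbours. H2-T23 at 49.8 CPM per kb (27.6 to 81.1), Psmb8 at 49.0 (40.4 to 57.1) and Tap2 at 34.9 (27.7 to 42.1) overlapped. Tap1 at 16.1 CPM per kb (11.3 to 21.1), Psmb9 at 12.7 (8.66 to 17.9) and Nlrc5 at 6.04 (3.88 to 9.14) closed the order, each overlapping the next. All 10 members passed the filter on low counts, with at least 1348 counts in every library. H2-K1, H2-D1, H2-T23 and B2m share no annotated exon with another gene, but class I heavy chains resemble one another closely enough to share reads, and a read with several equally good positions was counted once at its primary one. Tap1 and Psmb9 share 212 exon bases, and Tap2, Tapbp, Psmb8 and Nlrc5 overlap other genes too, so their counts can hold a neighbour's reads, since pairs were counted for every gene they overlapped and without strand.

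**Figure D1:**
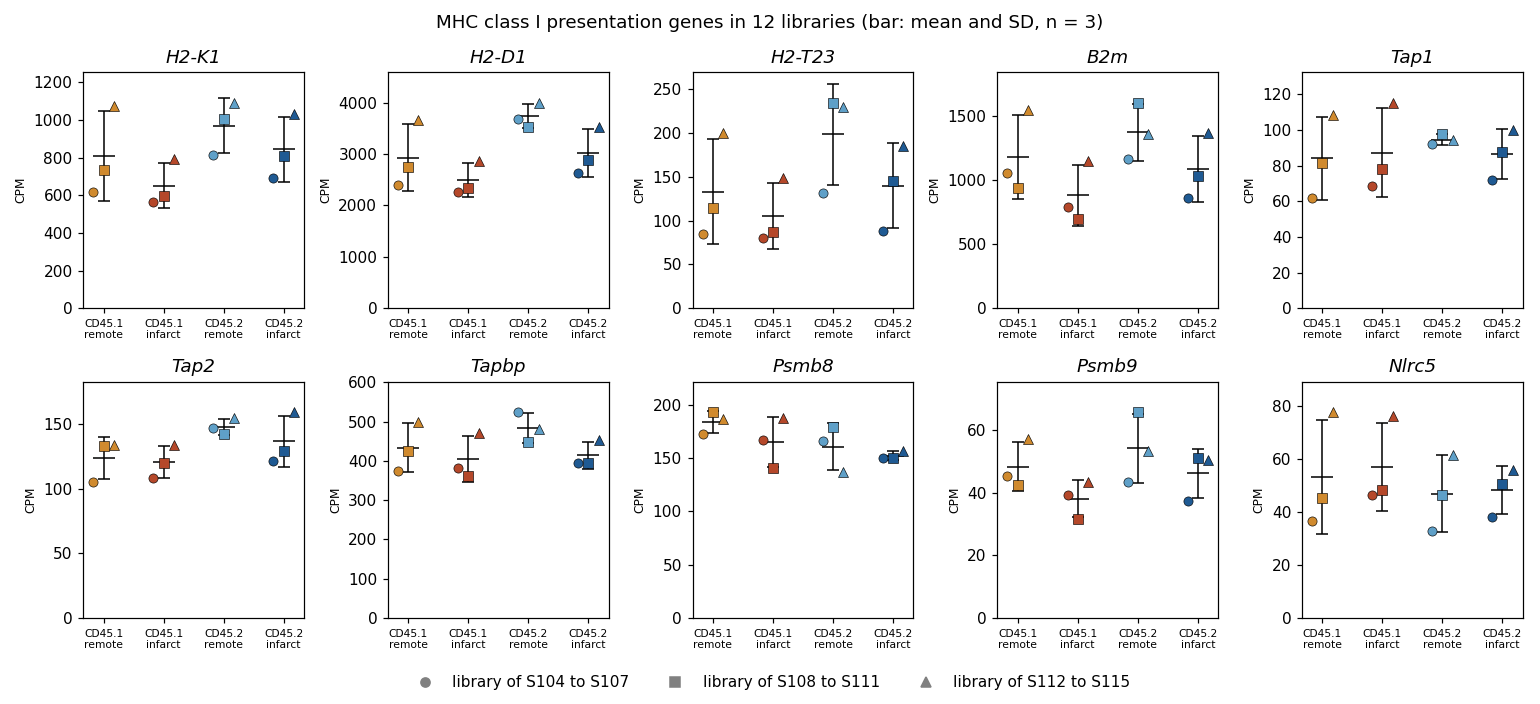
CPM (y axis, from 0) of the 10 members in each library of the 4 groups (x axis), with circles for S104 to S107, squares for S108 to S111, triangles for S112 to S115, and black bars for the mean and SD (n = 3). Tap2 in the remote zone was the only member whose CD45.2 libraries (142 to 155 CPM) all lay above the CD45.1 libraries (104.8 to 133 CPM).

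H2-D1, a classical heavy chain, stood at 2394, 2744 and 3654 CPM in CD45.1 RZ and at 3689, 3532 and 3999.6 CPM in CD45.2 RZ. Its infarct zone values were 2263, 2341 and 2864 CPM in CD45.1 and 2641, 2891 and 3532 CPM in CD45.2 cells. CD45.2 cells held the higher mean in both zones, but the libraries overlapped. As a log2 fold change of CD45.2 over CD45.1, H2-D1 differed by 0.35 in RZ (95% interval -0.05 to 0.75, adjusted p = 0.161) and by 0.28 in IZ (-0.12 to 0.68, adjusted p = 0.31). These are edgeR quasi-likelihood values, adjusted by Benjamini-Hochberg over 18773 genes, and folds below are given in the order RZ, IZ. H2-K1, the other classical heavy chain, was at 618, 734 and 1074 CPM in CD45.1 RZ and 812, 1008 and 1092 CPM in CD45.2 RZ. H2-K1 in infarct cells was at 566, 598 and 792 CPM in CD45.1 and 693, 809.8 and 1033 CPM in CD45.2 cells. Its log2 fold changes of 0.26 (-0.23 to 0.76) and 0.37 (-0.12 to 0.87) did not pass either.

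H2-T23, which encodes Qa-1, a nonclassical heavy chain read by NK receptors, had the largest difference between populations among the members and also the widest spread. It was at 84.3, 114.02 and 199.9 CPM in CD45.1 RZ and 132, 234 and 229 CPM in CD45.2 RZ, and at 79.7, 87.1 and 149 CPM in CD45.1 IZ and 88.6, 145 and 185 CPM in CD45.2 IZ. The highest library held 2.94 times the lowest. Its log2 fold changes were 0.58 (95% interval -0.23 to 1.39, adjusted p = 0.253) and 0.41 (-0.40 to 1.22, adjusted p = 0.469), by the same edgeR test. B2m, the light chain that every class I heavy chain above needs, was at 1179 ± 326 CPM in CD45.1 RZ and 1375 ± 222 CPM in CD45.2 RZ (SD, n = 3 each). Infarct libraries of B2m had 880.4 ± 238 CPM (CD45.1) and 1087 ± 256 CPM (CD45.2; SD, n = 3 each). Its log2 fold changes were 0.22 (-0.32 to 0.77) and 0.30 (-0.24 to 0.85).

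Tap1 and Tap2, the subunits of the peptide transporter, differed from each other in how their libraries lay. Tap2 was at 104.8, 133 and 133 CPM in CD45.1 RZ and 147, 142 and 155 CPM in CD45.2 RZ, and it was the only member whose libraries did not overlap between populations. For all genes tested, libraries did not overlap in 42.1% (RZ) and 41.3% (IZ), against 1 and 0 of the 10 members. The log2 fold change of Tap2 was 0.26 in RZ (95% interval -0.04 to 0.55, adjusted p = 0.161, edgeR) and 0.18 in IZ (-0.11 to 0.47). Tap1 was at 62.1, 81.5 and 108.6 CPM in CD45.1 RZ and at 92.1, 97.7 and 94.2 CPM in CD45.2 RZ. The SD of Tap1 was 23.4 CPM in the first group and 2.83 CPM in the second, and its log2 fold changes were 0.17 (-0.31 to 0.66) and -0.01 (-0.50 to 0.47). Tapbp, which encodes tapasin and bridges TAP to the empty heavy chain, stood at 433 ± 62.6 CPM in CD45.1 RZ, 405 ± 58.1 in CD45.1 IZ, 485 ± 37.8 in CD45.2 RZ and 414 ± 34.3 in CD45.2 IZ (SD, n = 3 each). Its log2 fold changes were 0.16 (-0.15 to 0.47) and 0.03 (-0.28 to 0.34).

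None of the 10 members passed the test between populations in either zone. Among all genes the same test called 32.0% in RZ and 19.5% in IZ. The members' log2 fold changes ran from -0.20 to 0.58 in the remote zone, with 8 of 10 above 0 and a median of 0.20, beside a median of 0.04 for all genes. Infarct values ran from -0.24 to 0.41, with 7 of 10 above 0 and a median of 0.23, beside 0.04. By edgeR 0 members had an unadjusted p under 0.05 in either zone, beside 43.5% (RZ) and 33.4% (IZ) of all genes. DESeq2 and limma-voom also called 0 members, and at an unadjusted p under 0.05 DESeq2 had 0, and limma-voom 2 (RZ) and 1 (IZ). With covariates for sex and for the side taken on the second component, 4 members were higher in CD45.2 RZ, namely H2-K1 at 0.29 (adjusted p = 0.049), H2-D1 at 0.37 (adjusted p = 0.0222), H2-T23 at 0.63 (adjusted p = 0.00708) and Tap2 at 0.27 (adjusted p = 0.0469), where 22.2% of all genes were higher. In IZ that edgeR fit called H2-K1 alone, at 0.37 (adjusted p = 0.0252), where 17.6% of all genes were higher. In either direction the fit with both covariates called 43.3% (RZ) and 30.6% (IZ) of all genes. Without the CD45.1 RZ library S112, H2-D1 alone passed in the remote zone, at 0.54 (adjusted p = 0.0463), where 29.5% of all genes passed. With the side as the only covariate H2-T23 alone passed there, at 0.59 (adjusted p = 0.0467), where 42.0% of all genes passed.

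**Figure D2:**
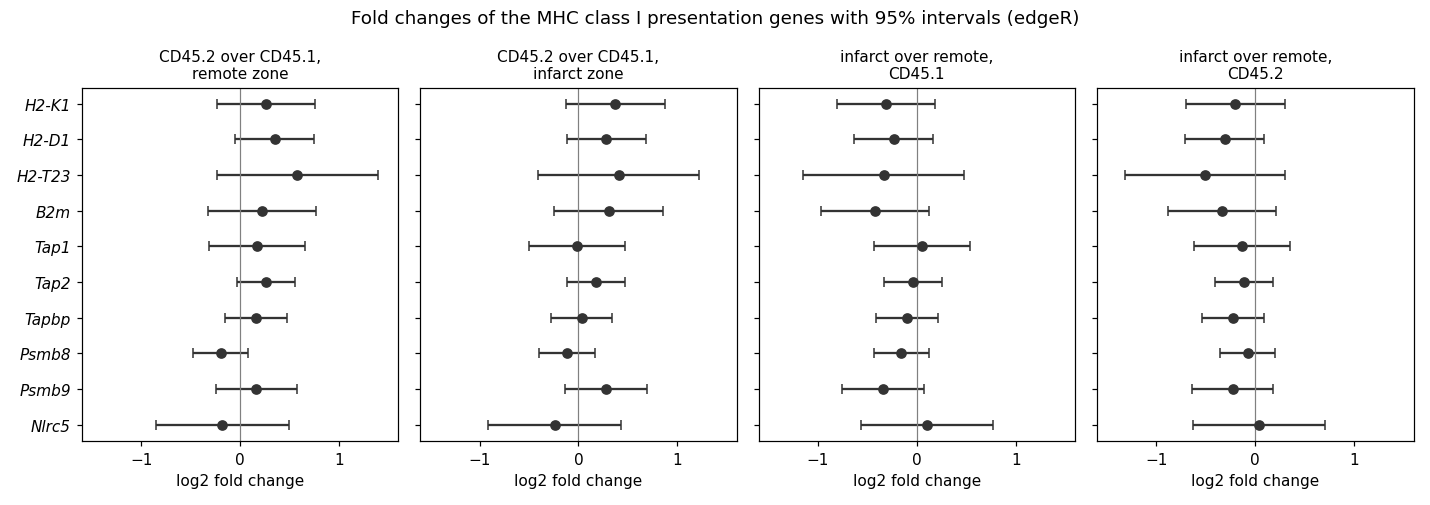
Log2 fold change (x axis) of each member with its 95% interval from the edgeR fit, for CD45.2 over CD45.1 in each zone and for infarct over remote zone in each population. All 40 intervals include 0, and H2-T23 has the largest difference of the populations in the remote zone, at 0.58.

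Psmb8 and Psmb9 encode catalytic subunits that replace Psmb5 and Psmb6 when an immunoproteasome is built, as Psmb10 replaces Psmb7. Psmb8 was at 173, 193 and 187 CPM in CD45.1 RZ, 167, 141 and 188 in CD45.1 IZ, 166, 179 and 137 in CD45.2 RZ and 151, 149.8 and 157 in CD45.2 IZ. It was, with Nlrc5, a member with a lower mean in CD45.2 cells in both zones, but its log2 fold changes of -0.20 (95% interval -0.48 to 0.08) and -0.12 (-0.40 to 0.16) did not pass. Psmb9 was at 48.2 ± 7.88 CPM in CD45.1 RZ, 38.1 ± 5.91 in CD45.1 IZ, 54.1 ± 11.2 in CD45.2 RZ and 46.2 ± 7.76 in CD45.2 IZ (SD, n = 3 each), with log2 fold changes of 0.17 (-0.25 to 0.58) and 0.28 (-0.13 to 0.69).

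The constitutive counterparts fell in CD45.2 RZ. Psmb5 was at 113.4, 129 and 83.0 CPM in CD45.1 RZ and at 69.9, 53.1 and 43.7 CPM in CD45.2 RZ, without overlap, and its log2 fold change was -0.96 (SE 0.227, adjusted p = 0.00758, edgeR). Psmb6 at -0.80 (adjusted p = 0.00929) and Psmb7 at -0.80 (adjusted p = 0.0104) also passed, as did the activator subunits Psme3 at -0.75, Psme2 at -0.51 and Psme1 at -0.31. Of the 9 genes on this list, 0 rose and 6 fell in the remote zone, where 32.0% of all genes were called in either direction. Their median was -0.51. In IZ 0 rose and 1 fell, Psme3 at -0.59, with a median of -0.28, where 19.5% of all genes were called. Psmb10, the third immunoproteasome subunit, had log2 fold changes of -0.20 (adjusted p = 0.201) and -0.18 (adjusted p = 0.306).

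Ratios of counts within a library do not depend on how libraries are scaled, and were not corrected for gene length. Psmb8 to Psmb5 was 1.53, 1.502 and 2.25 in CD45.1 RZ and 2.38, 3.38 and 3.13 in CD45.2 RZ. Infarct libraries had 1.24, 1.41 and 1.66 (CD45.1) and 1.45, 2.24 and 2.26 (CD45.2). All CD45.2 RZ libraries lay above all CD45.1 RZ libraries, while the infarct groups overlapped. Averaged over zones the ratio was 1.52-fold higher in CD45.2 cells (log2 difference 0.60, exact permutation p = 0.015, adjusted p = 0.05 over 6 tests). Psmb9 to Psmb6 was 1.75-fold higher (log2 0.81, exact permutation p = 0.025, adjusted p = 0.05) and Psmb10 to Psmb7 1.37-fold higher (log2 0.46, exact permutation p = 0.025, adjusted p = 0.05). An adjusted p of 0.05 is at the threshold and not under it, so none of the 3 passed when the sets were ignored. Labels were permuted within zones in 400 arrangements, 2-sided, and the smallest p they can give is 0.005.

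Between zones the ratios were lower in infarct cells, with log2 differences of -0.43 for Psmb8 to Psmb5 (exact permutation p = 0.04, adjusted p = 0.06), -0.51 for Psmb9 to Psmb6 (exact permutation p = 0.08, adjusted p = 0.08) and -0.40 for Psmb10 to Psmb7 (exact permutation p = 0.05, adjusted p = 0.06), none of which passed when the sets were ignored. Within the 3 sets, each ratio was higher in CD45.2 than in CD45.1 cells in 6 of 6 pairs of libraries and lower in infarct than in remote cells in 6 of 6 pairs. With labels exchanged only within sets, a test chosen after these values were seen, all 6 differences had an exact permutation p of 0.031 and an adjusted p of 0.031, the smallest that 64 arrangements can give. These arrangements take the pairs of a set as independent, although there were only 3 sets. With 6 of 6 pairs in 1 direction this p was already fixed, so it only restates that count. Single libraries also decided the calls made without regard to sets. Without the CD45.2 RZ library S106 all 6 differences passed, at exact permutation adjusted p of 0.03 to 0.04. Without the CD45.2 IZ library S107, Psmb8 to Psmb5 and Psmb9 to Psmb6 passed between populations (adjusted p = 0.03 each, exact permutation), and without the CD45.1 IZ library S113 all 3 passed between populations (adjusted p = 0.038 each, exact permutation). Also without S113, Psmb8 to Psmb5 at -0.49 and Psmb10 to Psmb7 at -0.45 passed between zones (exact permutation adjusted p = 0.038 and 0.048). Psmb7 shares 405 exon bases with Nek6 and Psmb5 holds the microRNA gene Mir686, so those counts are less certain than those of Psmb6.

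**Figure D3:**
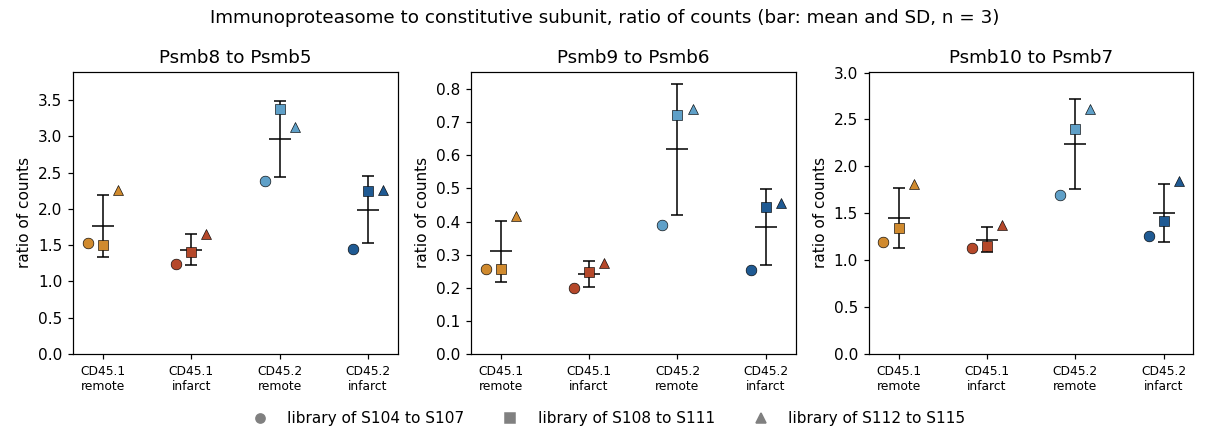
Ratio of counts (y axis, from 0) of each immunoproteasome subunit to its constitutive counterpart in every library of the 4 groups (x axis), with marker shapes for the 3 sets of libraries and bars for the mean and SD (n = 3). In Psmb8 to Psmb5 the CD45.2 RZ libraries (2.38 to 3.38) lie above the CD45.1 RZ libraries (1.502 to 2.25).

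Nlrc5, the transactivator of class I genes, was at 36.6, 45.3 and 77.6 CPM in CD45.1 RZ and 46.5, 48.2 and 76.2 CPM in CD45.1 IZ. CD45.2 cells had 32.9, 46.2 and 61.6 CPM (RZ) and 38.2, 50.5 and 56.0 CPM (IZ). The 4 groups overlapped throughout, and its log2 fold changes between populations were -0.18 (95% interval -0.85 to 0.49) and -0.24 (-0.91 to 0.43). Of 15 other genes that control class I transcription, 2 rose and 3 fell in CD45.2 RZ and 1 rose and 1 fell in CD45.2 IZ, with medians of -0.01 and -0.07. Beside these, 32.0% (RZ) and 19.5% (IZ) of all genes were called in either direction. Irf1, an interferon-induced activator of class I promoters, was at 35.9, 48.7 and 71.9 CPM in CD45.1 RZ and 95.3, 231 and 223 CPM in CD45.2 RZ. Irf1 was higher in CD45.2 cells by 1.81 on the log2 scale in RZ (SE 0.40, adjusted p = 0.00529) and by 1.44 in IZ (SE 0.396, adjusted p = 0.0254), by edgeR. The kappa-B subunit gene Rela rose by 0.28 in RZ. NF-Y subunit genes fell, Nfyc by 0.35 in either zone and Nfya by 0.92 in the remote zone, where the kappa-B factor gene Nfkb1 fell by 0.42. Irf1 shares 796 exon bases with Gm17334.

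Between zones 0 members passed in CD45.1 cells, where edgeR called 0.0% of all genes, and 0 in CD45.2 cells, where it called 1.76%. Log2 fold changes of infarct over remote were below 0 for 8 of 10 members in CD45.1 (median -0.20, all genes -0.0021) and for 9 of 10 in CD45.2 cells (median -0.21, all genes 0.02). B2m had the lowest value in CD45.1 cells, at -0.42 (95% interval -0.97 to 0.13), and H2-T23 in CD45.2 cells, at -0.51 (-1.32 to 0.31). Nlrc5 was above 0 in both populations, at 0.10 (-0.57 to 0.77) and 0.04 (-0.63 to 0.71). Without covariates no member had an unadjusted p under 0.05 between zones by edgeR, DESeq2 or limma-voom, beside 7.92% (CD45.1) and 15.8% (CD45.2) of all genes by edgeR, and those tools called none. Libraries of the zones overlapped for all 10 members, where 15.5% (CD45.1) and 19.0% (CD45.2) of all genes did not overlap. With covariates for sex and side edgeR again called 0 members between zones, and 2 in CD45.1 (H2-K1 at -0.29 and B2m at -0.42) and 3 in CD45.2 cells (H2-D1 at -0.32, H2-T23 at -0.54 and B2m at -0.37) had an unadjusted p under 0.05, with adjusted p of 0.0582 for H2-T23 and higher for the others. The difference between the zone effects was tested as an interaction, which called 0 members and 0.0% of all genes. Its log2 values for the members lay between -0.19 for Tap1 and 0.11 for Psmb9, and their intervals were wide, up to -1.32 to 0.97 for H2-T23. No member had an unadjusted p under 0.05 for the interaction with any of these tools, beside 4.37% of all genes by edgeR.

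The set of libraries a sample belonged to went with the members' levels in all 4 groups. Of the 40 pairs of member and group, the lowest of the 3 libraries was in S104 to S107 in 29 and the highest in S112 to S115 in 32. H2-K1 and Nlrc5 had their lowest library in the first and their highest in the last of these sets in all 4 groups. On average S112 to S115 exceeded S104 to S107 by 2.00-fold for H2-T23, 1.76-fold for Nlrc5, 1.49-fold for H2-K1 and 1.43-fold for Tap1. Psmb8 did not follow, at 1.01-fold. The sets held 81.4% of the variance of Nlrc5 across the 12 libraries (log2 CPM), where the groups held 8.46%, and 65.3% of that of Tap1, where the groups held 8.64%. For H2-D1 the groups held more, 59.3% against 33.7%, and for Psmb8 the sets held 0.166%.

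Other lists differed between these sets too. The median log2 difference of S112 to S115 over S104 to S107 was 0.43 over the members, 1.05 over 23 type I interferon induced genes and 1.25 over 18 interferon-gamma induced genes, all of whose genes lay above 0. It was 1.07 over 10 MHC class II genes, 90.0% of them above 0, and 0.60 over 16 other class I and class I-like genes, 93.8% of them above 0. Over all tested genes the median was 0.01, with 51.3% above 0. Peptide loading and proteasome genes lay the other way, with medians of -0.18 and -0.36. The sets follow the order of library numbers, with the second component and the called sex taken from these same data. These are therefore descriptions without a test. Ifnb1 and Ifng were not tested for low counts, with at most 16 counts over the 3 libraries of any group.

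**Figure D4:**
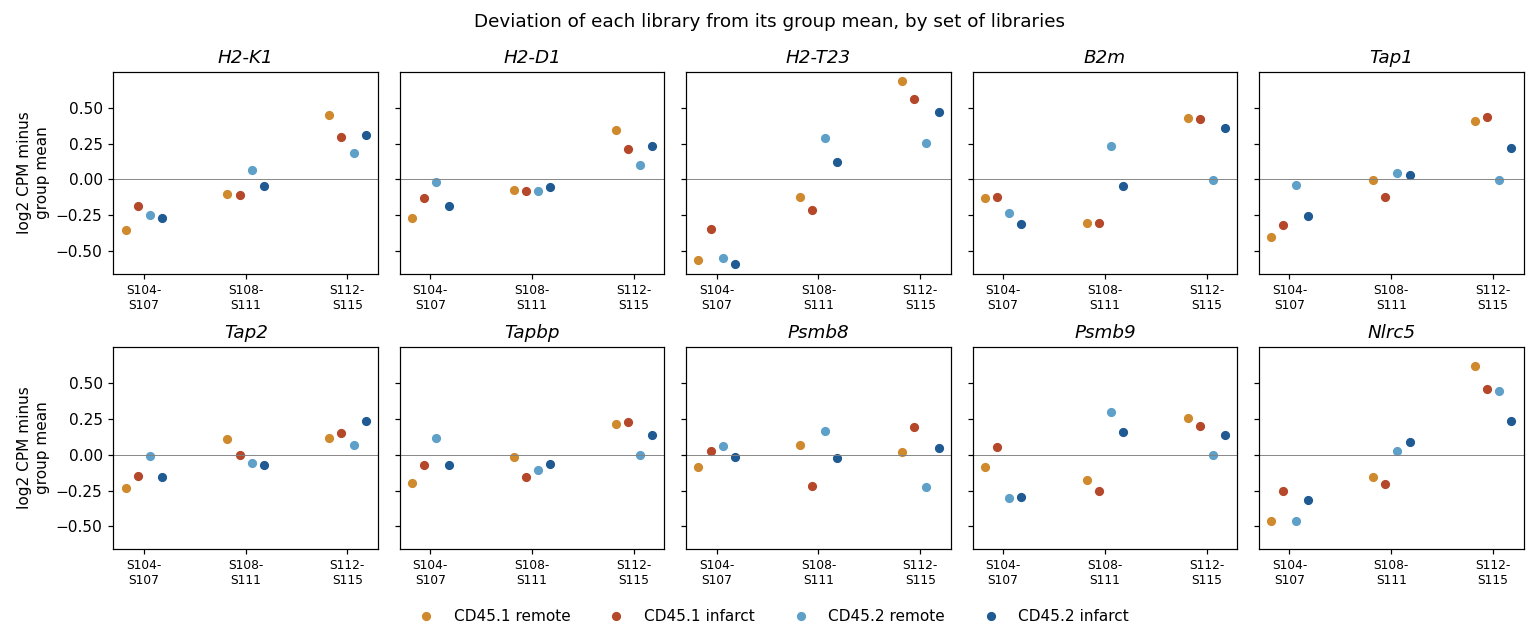
Deviation of each library from the mean of its group (y axis, log2 CPM) for the 10 members by set of libraries (x axis), with 1 colour per group. In H2-K1 and Nlrc5 the library of S104 to S107 is the lowest and that of S112 to S115 the highest in all 4 groups, while Psmb8 shows no such order.

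Across the 12 libraries the members varied together, as a description in which the points share group, set and scaling. The median Pearson r of log2 CPM over 45 pairs was 0.73, and 0.77 after group means were removed. H2-K1 and H2-T23 reached 0.97 and H2-K1 and H2-D1 0.94. The median r with the other members was 0.16 for Psmb8, 0.74 for Tap1 and 0.76 for Tapbp. The tested genes on no list here, with a mean of at least 10 CPM, that most followed the members' mean standardized level were Cd47 (r = 0.97), the receptor ligand that restrains phagocytosis, Trafd1 (0.96), Epsti1 (0.95), Frmd4a (0.94), Uba7 (0.94), the activating enzyme for ISG15, Chpt1 (0.94), Nod1 (0.94), a sensor of bacterial peptidoglycan, and Trex1 (0.92), a nuclease of cytosolic DNA. Cd47 lay between 207 and 322 CPM over the 12 libraries. None of these 8 genes passed between populations in the edgeR fit without covariates, which called 32.0% (RZ) and 19.5% (IZ) of all genes. They were picked for following the members, none of which passed that fit, so this is no separate result.

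Some other class I and class I-like molecules passed between populations in the edgeR fit without covariates, where no member did. Of 16 tested, 5 rose in CD45.2 RZ and 5 in CD45.2 IZ and 0 fell in either zone, with medians of 0.57 and 0.79. In either direction that fit called 32.0% (RZ) and 19.5% (IZ) of all genes. Fcgrt, the neonatal Fc receptor that recycles IgG and albumin and pairs with B2m, was at 137, 125 and 271 CPM in CD45.1 RZ and 1566, 1395 and 1653 CPM in CD45.2 RZ, which is 3.12 higher on the log2 scale (SE 0.298, adjusted p = 1.86e-05, edgeR). Fcgrt in infarct cells was at 83.0, 54.7 and 64.2 against 697, 760.5 and 1025 CPM, or 3.62 higher (SE 0.305). Hfe, a class I-like regulator of iron uptake that also pairs with B2m, rose by 0.93 and 1.20. H2-M2 had 0 counts in all 6 CD45.1 libraries and 1231 and 395 counts in CD45.2 RZ and IZ. With 3 counts per group as the floor for CD45.1, its ratio was 411-fold in RZ and 131-fold in IZ. Intervals for these ratios, from counting error only, ran from 140 to 1998 in RZ and from 44.5 to 638 in IZ. H2-M3, which presents formylated peptides, rose by 0.62 (adjusted p = 0.0319) in the remote zone, where H2-Q1 rose by 0.84 (adjusted p = 0.0459), both by edgeR. H2-Q7 was at 4.67, 7.71 and 10.6 CPM in CD45.1 IZ and at 51.8, 32.6 and 43.6 CPM in CD45.2 IZ, a rise of 2.48, and H2-Q6 rose there by 2.43. H2-Q6 and H2-Q7 are near-identical copies, so the division of reads between them is uncertain.

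**Figure D5:**
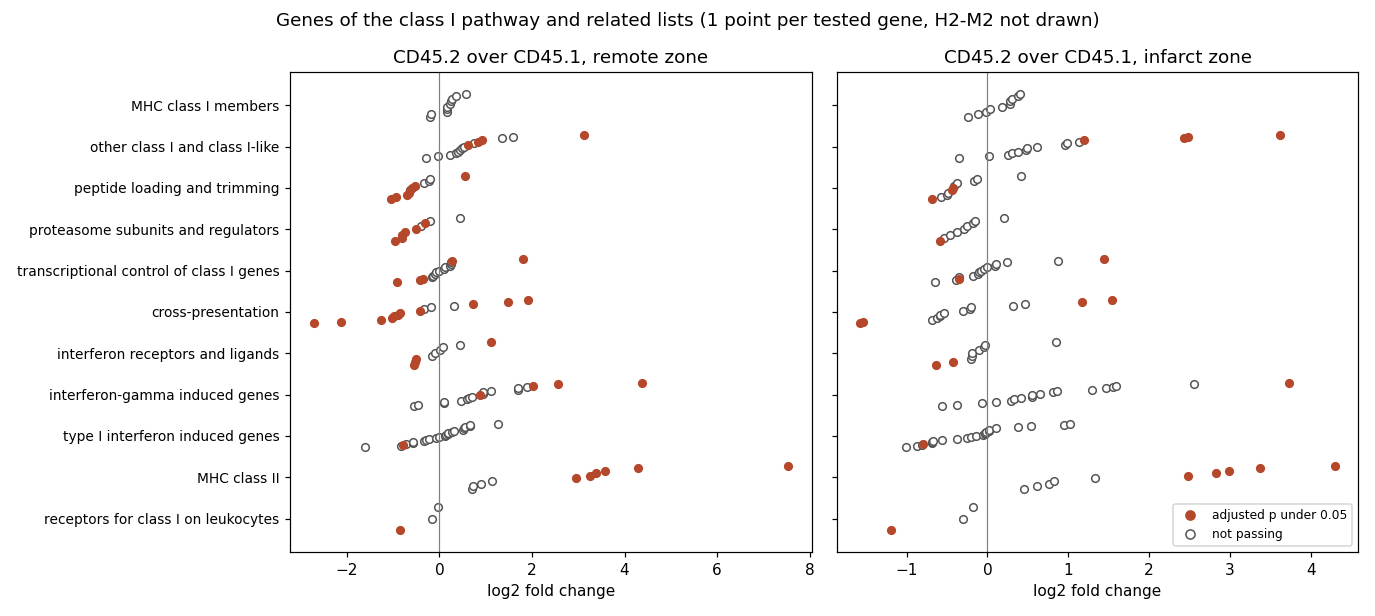
Log2 fold change of CD45.2 over CD45.1 (x axis) in the remote and infarct zone for each tested gene of the lists (y axis), filled where the edgeR adjusted p is under 0.05. The members, in the top row, are all open, while the rightmost MHC class II gene is H2-Eb2 at 7.54 in the remote and H2-Eb1 at 4.29 in the infarct zone. The panels differ in scale, and H2-M2, at 0 counts in CD45.1 cells, is not drawn.

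Peptide loading and trimming genes lay mostly lower in CD45.2 cells. Of 11, 1 rose and 6 fell in the remote zone and 0 rose and 3 fell in the infarct zone, with medians of -0.60 and -0.42. Over all genes 32.0% (RZ) and 19.5% (IZ) were called in either direction. Calr, the calreticulin of the loading complex, was at 1496, 1221 and 1081 CPM in CD45.1 RZ and 845, 615 and 526 CPM in CD45.2 RZ, a fall of 0.93 on the log2 scale. Erap1, which trims peptides to fit class I, fell by 0.52 and 0.42, Lnpep, which trims peptides in endosomes, by 0.71 and 0.44, and Pdia6, a disulfide isomerase, by 1.04 and 0.69. Tapbpl, which encodes the tapasin-like editor TAPBPR, rose by 0.55 in the remote zone (adjusted p = 0.0161, edgeR). Erap1 overlaps Cast on the opposite strand.

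Where 16.2% of all genes were higher in CD45.2 RZ, 4 of 18 interferon-gamma induced genes rose there, Iigp1 by 4.39, Tgtp2 by 2.57, Gbp6 by 2.03 and Irgm2 by 0.89, and in CD45.2 IZ Iigp1 alone rose, by 3.72, while 0 fell. Iigp1, which encodes a GTPase that attacks pathogen vacuoles, was at 0.249, 2.37 and 1.49 CPM in CD45.1 RZ and 20.2, 41.1 and 25.3 CPM in CD45.2 RZ. Calls in either direction made up 32.0% (RZ) and 19.5% (IZ) of all genes. Of 23 type I interferon induced genes 0 rose and Dhx58 alone fell, by 0.79 and 0.80. Of 9 interferon receptor and signalling genes Ifnar1 and Jak2 fell in both zones, Ifnar1 by 0.52 and 0.43, Ifngr2 fell in the remote zone and Socs3, a feedback inhibitor of cytokine signalling, rose there by 1.11. Gbp6, Irgm2 and Dhx58 share exons with neighbouring genes.

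MHC class II genes stood apart from the members. Of 10, 6 rose in CD45.2 RZ and 5 in CD45.2 IZ, with medians of 3.10 and 1.90 beside the members' 0.20 and 0.23. The share called among all genes, in either direction, was 32.0% (RZ) and 19.5% (IZ). H2-Eb1, a class II beta chain, was at 52.1, 100.7 and 131 CPM in CD45.1 RZ and 534, 2498 and 2525 CPM in CD45.2 RZ, a rise of 4.29 in both zones. Of 14 cross-presentation genes 3 rose and 8 fell in RZ, and 2 rose and 2 fell in IZ. Among them Mrc1, the mannose receptor that takes up antigen, rose by 1.48 and 1.16, and the cathepsin L gene Ctsl fell by 2.71 and 1.57. Of the receptors for class I, 3 genes were tested and Klra2 fell, by 0.85 and 1.19. Between zones Ctsl rose by 1.29 and H2-Eb2 fell in CD45.2 cells, and no other gene of these lists passed in either population.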

How the data were processed

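Per the labels and the study's methods, the authors trimmed reads with bbduk, aligned them with HISAT2 2.2.1 to GRCm38.p6 and counted primary alignments with featureCounts (Subread 2.0.1) for each gene overlapped, without strand. The deposited values are these raw counts, for 12 SMART-Seq v4 libraries and 55487 genes, 55141 of which matched a symbol. After edgeR's filter on low counts (minimum 10 per library, 15 in total) 18773 genes were tested. edgeR 4.0.16 (R 4.3.3) was fitted across all genes with TMM scaling and a mean for each of the 4 groups, for 5 comparisons, at an adjusted p of 0.05. CPM include the TMM factors. The SE was taken as |log2 fold change| over the root of F, with 95% intervals. Ratios had 0.5 added to each count. The fit was tested on simulated data. Alternatives were DESeq2 1.42.0, limma 3.58.1 (voom), other scaling and filters, covariates, and libraries left out. All members are named, and from each other list up to 4 genes with the smallest adjusted p at a group mean of at least 1 CPM, plus the 8 genes most like the members. Psmb10, Psme1, Psme2, Tapbpl, Rela, H2-Q1, H2-Q6, Ifnb1 and Ifng were named after their values were seen. Members and lists were chosen with earlier results of these data known.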

Additional observations from a re-analysis of the deposited data

How the results depend on the processing

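No paired analysis was possible from the labels, which carry no replicate or animal numbers. The covariates for sex and side give each of the 3 sets of libraries, drawn from the data, a level of its own and so act as a block on them. Members called between populations in RZ went from 0 to 4 with covariates for sex and side together and to 1 for the side alone (H2-T23 at 0.59, with 42.0% of all genes called), and in IZ from 0 to 1 with both covariates. With both, 43.3% (RZ) and 30.6% (IZ) of all genes were called in either direction. With 1 library left out the RZ count was 0 to 1. The alternatives with the side alone, with sex alone, and without S108 to S111 or S112 to S115 were chosen after seeing the data. Between zones and for the interaction the count was 0 in every alternative run. Genes called between zones in CD45.2 were 1.76% with edgeR, 5.75% with DESeq2 and 7.76% with both covariates, and the cause was not tested. Without S108 to S111, with fewer libraries, 10.1% (RZ) and 5.08% (IZ) were called between populations.

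Uncalled log2 fold changes near 0 changed sign. Between populations in the remote zone, without S108 to S111 B2m was -0.049 and Psmb9 -0.085, and by limma-voom Nlrc5 was 0.11. In the infarct zone Tap1 was 0.0036 with both covariates, 0.12 without S112 to S115 and 0.0035 by limma-voom, and Tapbp -0.011 without S108 to S111. Between zones in CD45.1, Tap2 was 0.022 without S108 to S111 and 0.033 by limma-voom. Between zones in CD45.2, without S108 to S111 Psmb8 was 0.022 and Nlrc5 -0.0062, and without S104 to S107 Nlrc5 was -0.043. For the interaction, H2-K1 was -0.061 without S112 to S115 and -0.079 by limma-voom, B2m -0.13 and -0.046, and Psmb9 -0.0021 without S112 to S115, and without S104 to S107 H2-D1 was 0.047, Tap2 0.0090 and Tapbp 0.0020.

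With 1 library left out at a time, values ranged in the remote zone from -0.011 to 0.39 for Tap1 and -0.43 to 0.19 for Nlrc5, and in the infarct zone from -0.18 to 0.20 for Tap1 and -0.047 to 0.12 for Tapbp. Between zones in CD45.1 they ranged from -0.65 to 0.084 for H2-T23, -0.18 to 0.28 for Tap1, -0.14 to 0.030 for Tap2, -0.20 to 0.015 for Tapbp and -0.15 to 0.48 for Nlrc5, and in CD45.2 from -0.16 to 0.27 for Nlrc5. For the interaction they ranged from -0.15 to 0.25 for H2-K1, -0.26 to 0.032 for H2-D1, -0.59 to 0.13 for H2-T23, -0.16 to 0.29 for B2m, -0.41 to 0.031 for Tap1, -0.20 to 0.0059 for Tap2, -0.041 to 0.15 for Psmb8, -0.026 to 0.25 for Psmb9 and -0.43 to 0.17 for Nlrc5. The ratio differences between populations ranged from 0.55 to 0.71 for Psmb8 to Psmb5, 0.73 to 0.96 for Psmb9 to Psmb6 and 0.38 to 0.55 for Psmb10 to Psmb7, and between zones from -0.51 to -0.33, -0.66 to -0.37 and -0.50 to -0.32. With labels exchanged within sets only, added after seeing the data, the ratio differences were the same by construction (0.60, 0.81 and 0.46 between populations, -0.43, -0.51 and -0.40 between zones). All had an exact permutation adjusted p of 0.031, with the pairs of a set taken as independent. This p was fixed once 6 of 6 pairs were seen to lie in 1 direction.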
